A study of Mus musculus with 11 samples.

Results

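Glycolysis and the response to low oxygen were described through 34 genes, picked by name, in RNA pulled down from endothelial cells of mouse brain and glioma. The list held 17 glycolytic enzymes, 2 lactate carriers, 4 regulators of glycolytic flux and 11 targets of the hypoxia response, out of 45802 genes listed for each library. The study asked how endothelial RNA differs between glioma and healthy brain, and whether loss of Eltd1 alters it. Eltd1, now called Adgrl4, encodes an adhesion receptor of endothelial cells. GL261, a glioma line of the C57BL/6 mouse, was placed in the brain of adult wild type or Eltd1-/- C57BL/6 mice. The mice of both genotypes carried eGFP-L10a, a ribosomal protein fused to green fluorescent protein and driven by the VE-cadherin promoter, so that tagged ribosomes and their RNA could be pulled down with antibody beads (translating ribosome affinity purification, TRAP). The groups were wild type brain (n = 3), knockout brain (n = 3), wild type tumour (n = 3) and knockout tumour (n = 2), and each library came from a separate mouse sample. The tag marks the cells in which the VE-cadherin promoter is active, and the GL261 cells themselves carried no tag per the labels. The labels do not say which part of Eltd1 was disrupted.

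Glycolysis splits glucose into pyruvate in the cytosol. Hexokinases, phosphofructokinases and pyruvate kinase catalyse its irreversible steps, and lactate dehydrogenase turns pyruvate into lactate, which leaves the cell through monocarboxylate carriers. When oxygen falls, the prolyl hydroxylases encoded by Egln genes slow down, the alpha subunits of hypoxia-inducible factor (HIF) persist, and HIF binds the core letters ACGTG or GCGTG near its target genes, among them many glycolytic genes. Endothelial cells are known to draw most of their energy from glycolysis even where oxygen is plentiful, and several steps have a neuronal or glial isoenzyme beside the one found in most other cells, for instance Eno2 beside Eno1 and Aldoc beside Aldoa.

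Promoter sequence was matched for 32 of the 34 genes in a RefSeq table of the build GRCm38.p6. The letters ACGTG, read on both strands in the 250 bases before each start site, were found in 18 of the 32 genes (56.25%), against 18.5% of 27025 genes with a window in the table. By window rather than gene, 21 of 45 member windows (46.7%) and 16.6% of all 32851 windows held ACGTG. The letters GCGTG were found in 57.8% of member windows and in 28.2% of all windows. ACGTG was present in 7 of 9 hypoxia targets with a window, both lactate carriers, 2 of 4 flux regulators and 7 of 17 glycolytic enzymes. Base composition was not matched between the members and all genes, and the list includes known HIF targets, so these shares are a description. The windows below belong to genes on which the tissue comparison turns: Hk2, Pgk1 and Ldha, which were higher in tumour, Car9, which was above 0 in knockout tumour alone, and Ldhb and Slc16a1, which were lower. Each is written 5′ to 3′ on the gene's own strand and ends 1 base before the start site, with ACGTG and GCGTG matches on either strand in capitals. A palindromic CACGTG counts once on each strand.
Hk2, chr6:82774455-82774704, minus strand: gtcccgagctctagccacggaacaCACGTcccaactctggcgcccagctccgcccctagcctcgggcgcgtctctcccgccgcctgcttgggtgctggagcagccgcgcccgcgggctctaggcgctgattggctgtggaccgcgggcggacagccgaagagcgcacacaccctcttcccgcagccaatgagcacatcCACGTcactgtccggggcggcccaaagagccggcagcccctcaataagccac
Pgk1, chrX:106186850-106187099, plus strand: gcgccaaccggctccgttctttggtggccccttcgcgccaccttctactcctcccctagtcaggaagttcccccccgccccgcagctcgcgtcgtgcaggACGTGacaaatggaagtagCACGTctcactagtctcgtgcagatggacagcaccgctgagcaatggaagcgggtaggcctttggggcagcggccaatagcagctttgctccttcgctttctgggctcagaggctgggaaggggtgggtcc
Ldha, chr7:46845554-46845803, plus strand: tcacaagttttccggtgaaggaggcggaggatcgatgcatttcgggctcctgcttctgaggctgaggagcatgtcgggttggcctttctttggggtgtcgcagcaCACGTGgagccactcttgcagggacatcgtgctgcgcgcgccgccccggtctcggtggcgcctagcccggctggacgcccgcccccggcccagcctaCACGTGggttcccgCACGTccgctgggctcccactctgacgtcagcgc
Car9, chr4:43506776-43507025, plus strand: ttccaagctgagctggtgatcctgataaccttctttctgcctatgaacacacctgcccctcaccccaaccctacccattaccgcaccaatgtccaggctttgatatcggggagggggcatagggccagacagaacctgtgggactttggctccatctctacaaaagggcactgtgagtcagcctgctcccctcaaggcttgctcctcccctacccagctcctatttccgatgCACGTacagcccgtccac
Ldhb, chr6:142507958-142508207, minus strand: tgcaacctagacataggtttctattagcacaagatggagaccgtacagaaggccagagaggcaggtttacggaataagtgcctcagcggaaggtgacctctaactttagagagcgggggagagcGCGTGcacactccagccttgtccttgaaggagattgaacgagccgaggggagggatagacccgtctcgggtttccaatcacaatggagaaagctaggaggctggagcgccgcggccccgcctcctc
Slc16a1, chr3:104638414-104638663, plus strand: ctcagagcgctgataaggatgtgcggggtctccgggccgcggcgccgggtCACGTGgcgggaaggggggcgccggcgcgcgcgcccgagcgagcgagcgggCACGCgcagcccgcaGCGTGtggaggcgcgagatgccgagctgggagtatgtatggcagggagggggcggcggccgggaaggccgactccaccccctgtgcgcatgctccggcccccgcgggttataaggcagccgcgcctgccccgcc
Hk2 and Pgk1 each held 2 ACGTG matches and this Ldha window held 5, while Ldhb held a single GCGTG match and no ACGTG. Slc16a1, the carrier that was lower in tumour, also held ACGTG. Among the 6 members that rose in tumour plus Car9, 6 had ACGTG in a window, as had 3 of 7 called lower and 9 of 18 not called, so the letters occurred in members of either direction.

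Levels are in FPKM, which divides a gene's fragments by the length of its transcript and by the library's mapped fragments, so that genes of unlike length can be compared. Depth in reads is unknown. Summed FPKM ranged from 477911 to 641665 per library, and 8978 to 15433 genes were above 0. The lowest number of genes was in wild type tumour replicate 2, in which 11 of the 34 members were listed at 0. No other library had more than 6 members at 0, and a value of 0 can be a failed estimate. Adgrl4, the targeted gene, was between 5.82 and 23.6 FPKM in the 5 knockout libraries and between 27.4 and 192 in the 6 wild type libraries, with no overlap. Cdh5, the gene of VE-cadherin, was at 25.8 to 56.4 FPKM in brain and 4.28 to 20.2 in tumour. The summed level of 15 endothelial markers was 1653 to 2263 FPKM in brain and 345 to 994 in tumour, with none of the 15 at 0 in a whole group. Over 10 neuron markers the sums were 4647 to 6415 in brain and 96.3 to 2879 in tumour, the highest tumour value being wild type tumour replicate 3. The 10 markers of dividing and glioma cells summed to 459 to 788 in brain and 1936 to 3149 in tumour, and the 14 of microglia and macrophages to 43.3 to 69.4 and 160 to 460. Vim made up most of the dividing and glioma sum in every tumour library, at 1374 to 2080 FPKM. By the mean tissue change given below 9 of those 10 rose, and Prom1 fell, at 125 to 327 FPKM in brain and 9.70 to 134 in tumour. In bulk RNA of this kind, fewer cells of a type and less RNA per cell cannot be told apart. The part of these markers in the differences below was not tested, beyond the fit with the neuron markers as covariate given with the tissue comparison.

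**Figure D1:**
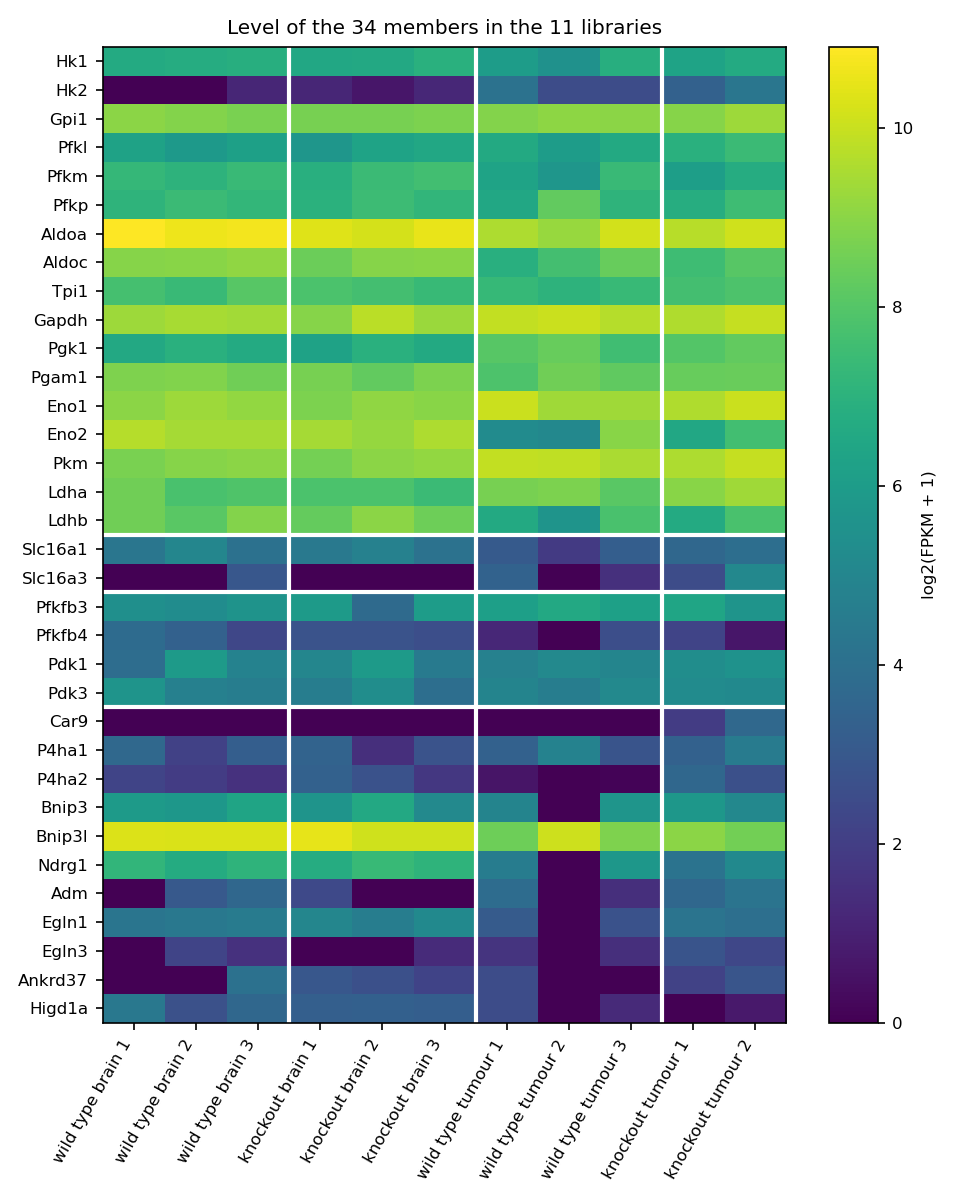
Level of each of the 34 members (rows, grouped from top to bottom as glycolytic enzymes, lactate carriers, flux regulators and hypoxia targets) in the 11 libraries (columns), as log2(FPKM + 1). Dark cells are values near 0, and wild type tumour replicate 2 has 11 members at 0.

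Tumour and brain were compared with limma on log2(FPKM + 1), over 15604 genes with at least 1 FPKM in at least 2 libraries, and all 34 members passed that filter. P-values were adjusted by the Benjamini-Hochberg method over all tested genes, and a gene was called at an adjusted p under 0.05. Car9 was at 0 in 9 libraries and passed the filter through the 2 knockout tumours alone, so it is described without a test. In the mean of the wild type and knockout changes, 6 of the other 33 members were higher in tumour, 9 were lower and 18 were not called. Over all tested genes 30.2% were called in that comparison, 12.6% higher and 17.6% lower. The median change of the 33 members was -0.17 on the log2 scale, and that of all tested genes was -0.25. The genes that rose were Hk2, Pgk1, Pkm, Ldha, Eno1 and Slc16a3. Those that fell were Eno2, Ldhb, Aldoc, Aldoa, Slc16a1, Bnip3l, Ndrg1, Egln1 and Higd1a.

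In wild type mice alone 3 members were higher and 9 lower, where 19.4% of all tested genes were called, 7.7% higher and 11.7% lower. The 3 were Hk2, Pgk1 and Pkm, and the 9 were the genes named above as falling in the mean. In knockout mice, with 1 tumour library fewer, 3 of the 33 were higher (Hk2, Pgk1 and Ldha) and none was lower at the threshold in limma, where 7.08% of all tested genes were called, 4.79% higher and 2.29% lower. At an unadjusted p under 0.05 the knockout comparison held 14 of the 33 members, in both directions together, and 24.6% of all tested genes. Hk2 and Pgk1 were thus called in each genotype separately with all libraries, but not under every alternative. The wild type Hk2 call was absent when tumour replicate 1 or brain replicate 1 or 2 was dropped. In knockout mice Hk2 was not called after dropping any knockout brain library, at pseudocounts of 0.1 or 0.5, unfiltered, or under upper quartile scaling. Knockout Pgk1 was not called after dropping brain replicate 1 or 3, or with no variance trend. In a fit of the wild type groups alone neither gene was called. The median change of the 33 members was -0.49 in wild type mice and 0.15 in knockout mice, beside -0.26 and -0.18 over all tested genes. Without a test, 6 members lay above brain and 13 below it in all 3 wild type tumours, where 12.7% and 19.8% of all tested genes did. In knockout mice 11 lay above and 11 below, where 22% and 28.6% of all tested genes did. The 11 above include Car9, which the filter let in through these same tumours. The test of whether the tissue change differed between genotypes called no member, as given below.

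**Figure D2:**
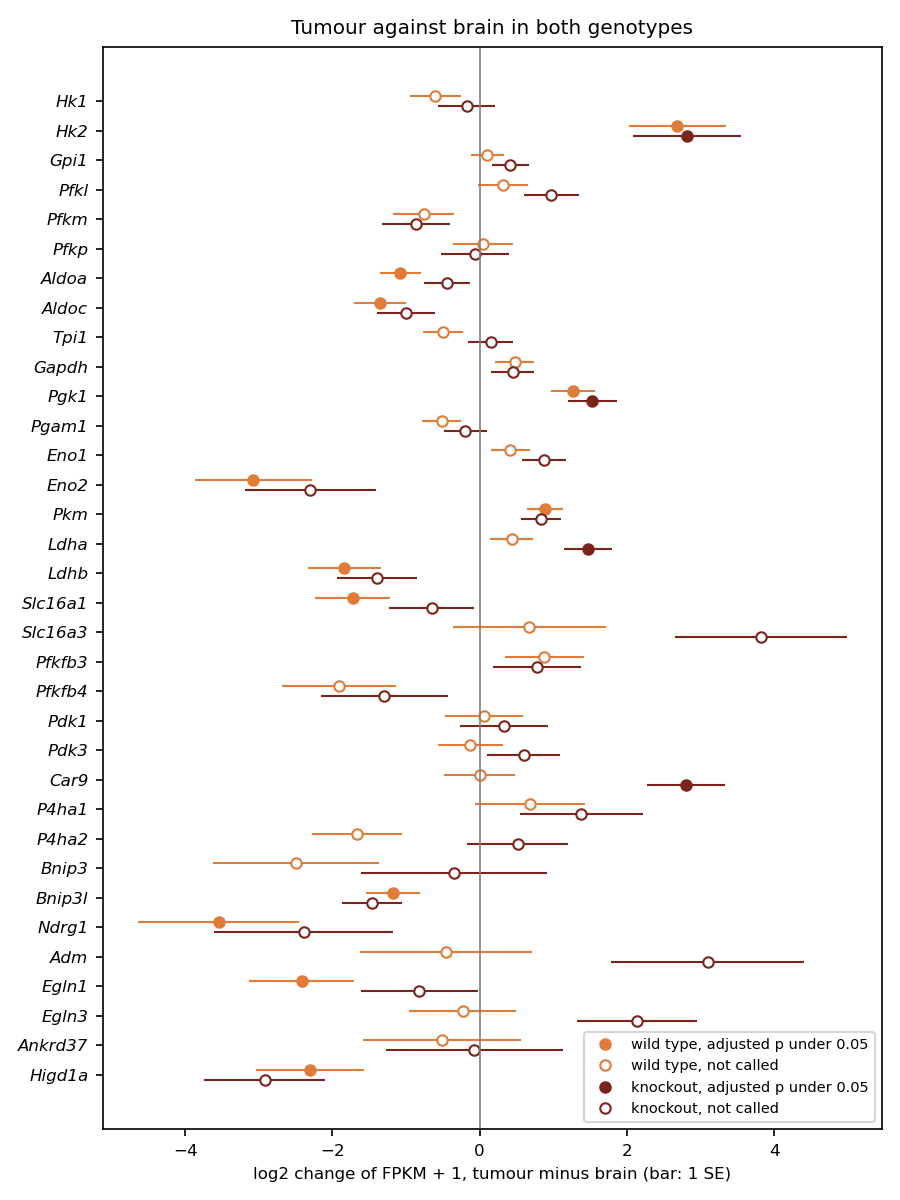
Change of each member between tumour and brain (x axis, log2 of FPKM + 1, bars 1 SE) in wild type mice (orange) and knockout mice (dark red). Filled points had an adjusted p under 0.05 in limma (for Car9, which passed the filter through knockout tumour alone, the point is no test), and Hk2 and Pgk1 are filled and positive in both.

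A neuron covariate, the mean log2(FPKM + 1) of the 10 neuron markers, was added to the fit. All calls of the mean comparison were then lost: no member was called, and 71 of the 15604 genes were. That covariate moved with tissue, since 9 of the 10 neuron markers were themselves called lower in tumour. With it the log2 changes of Bnip3l (-1.71), Higd1a (-2.55), Slc16a3 (2.25) and Hk2 (2.12) stayed large, at adjusted p of 0.261 to 0.792 in limma. Those of Aldoa (-0.02), Aldoc (-0.09), Ldhb (-0.10) and Ndrg1 (-0.15) were near 0, Eno2 turned to 0.75, and the remaining 6, Pgk1, Pkm, Ldha, Eno1, Egln1 and Slc16a1, kept their sign at 0.93, 0.63, 0.55, 0.37, -0.92 and -0.55. Without wild type tumour replicates 2 and 3, the library with few genes and the one with most neuron RNA, the counts were 7 higher and 9 lower, Car9 included. Of these, 7 and 8 were among those called with all libraries, and the call lost was Slc16a1 (adjusted p = 0.0556 in limma). Without knockout tumour replicate 2 the count of higher members was 4, and without knockout tumour replicate 1 that of lower members was 4. Under another scaling the median change of all genes moved from -0.25 to -0.12 (upper quartile) or -0.06 (quantile normalization), and the share of higher calls among all calls from 41.6% to 50.9% or 50.1%.

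Hexokinases trap glucose in the cell as glucose 6-phosphate. Hk2, the inducible isoenzyme at chr6:82725025-82774454 of GRCm38, was at 0, 0 and 1.26 FPKM in wild type brain and at 1.26, 0.573 and 1.31 in knockout brain. In tumour it was at 16.6, 4.80 and 4.88 in wild type mice and at 9.34 and 18.6 in knockout mice. Every tumour library lay above every brain library, which held for 8.73% of all tested genes in this direction. The mean change was 2.75 on the log2 scale (SE 0.49, limma adjusted p = 0.00218), and it was called in each of the 11 fits that left out 1 library. Hk1, the isoenzyme of most brain cells, was at 102, 106 and 112 FPKM in wild type brain and 91.2, 94.9 and 121 in knockout brain. It was at 65.1, 45.5 and 115 in wild type tumour and at 79.5 and 102 in knockout tumour, so the tissues overlapped. Its change of -0.39 (SE 0.26) was not called (limma adjusted p = 0.286). Hk1 therefore stayed the more abundant of the pair in all 11 libraries.

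The next steps of the pathway, up to fructose 1,6-bisphosphate, showed no call. Gpi1, which interconverts glucose and fructose 6-phosphates, ran from 402 to 629 FPKM over all libraries and had the smallest within-group SD of all members (0.14 on the log2 scale). Phosphofructokinase commits the sugar to glycolysis, and its subunits are Pfkl, Pfkm and Pfkp. Pfkp was at 136, 173 and 149.7 FPKM in wild type brain, 125, 179 and 143 in knockout brain, 92.8, 309 and 136 in wild type tumour, and 109 and 182 in knockout tumour. The value of 309 was that of wild type tumour replicate 2. Pfkm was at 151, 134 and 169.6 in wild type brain, 116, 173 and 194 in knockout brain, 78.3, 52.9 and 167 in wild type tumour, and 67.8 and 109 in knockout tumour. Wild type tumour replicate 3 was in the range of brain and the other tumour libraries were below it. Pfkl was at 77.4, 56.7 and 71.8 in wild type brain and 51.8, 80.5 and 93.2 in knockout brain. In tumour Pfkl was at 98.4, 64.0 and 97.5 in wild type mice and at 119 and 174 in knockout mice, the highest levels of the 11. The mean changes were 0.64 for Pfkl (limma adjusted p = 0.0729), -0.81 for Pfkm (0.0669) and -0.01 for Pfkp (0.988).

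Aldolases split fructose 1,6-bisphosphate, and both measured isoenzymes fell in tumour. Aldoa, the most abundant of the 34 members in 5 of the 6 brain libraries, at chr7:126795234-126800994, was at 1925, 1576 and 1663 FPKM in wild type brain and 1334, 1169.8 and 1479 in knockout brain. In wild type tumour it was at 761, 601 and 1162, and in knockout tumour at 842 and 1114. The tissues did not overlap, though wild type tumour replicate 3 came close to the lowest brain library, knockout brain replicate 2. The change was -0.76 (SE 0.21, limma adjusted p = 0.0177), and the call was lost without knockout tumour replicate 1 (adjusted p = 0.0943). Aldoc, the form of astrocytes and some neurons, was at 485, 501 and 542 in wild type brain, 356, 492 and 502 in knockout brain, 117, 202 and 327 in wild type tumour, and 185 and 267 in knockout tumour. Its change was -1.18 (SE 0.27, limma adjusted p = 0.0071), with no overlap and with the call kept in all 11 fits that left out 1 library. The summed level of 10 astrocyte markers was also lower, at 598 to 1212 FPKM in brain and 180 to 455 in tumour. Of the 10, 6 were called lower and 1 higher in the mean comparison. Gfap rose, at 12.7 to 38.7 FPKM in brain and 67.7 to 105 in tumour.

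The payoff steps held a rising gene, Pgk1, between neighbours that were not called. Tpi1, which interconverts the triose phosphates, ranged from 131 to 269 FPKM (log2 change -0.17, limma adjusted p = 0.548). Gapdh, often used as a reference gene, ranged from 489 to 1062 FPKM and had a change of 0.46 (limma adjusted p = 0.101). Pgk1, which makes the pathway's earliest ATP and lies at chrX:106187100-106203699, was at 96.2, 122 and 102 FPKM in wild type brain and 77.5, 119 and 96.9 in knockout brain. In tumour it was at 271, 331 and 190.1 in wild type mice and at 250.1 and 315 in knockout mice. Brain held 107 ± 13.4 (SD, n = 3) and 97.9 ± 20.9 (n = 3), tumour 264 ± 70.8 (n = 3) and 282 ± 45.8 (n = 2), and no libraries overlapped. The mean change was 1.40 (SE 0.22, limma adjusted p = 0.00108), and leaving out any single library kept it called, with values between 1.31 and 1.51. Pgam1, which moves the phosphate between carbons of glycerate, ranged from 229.8 to 458 FPKM and was not called (log2 change -0.35, limma adjusted p = 0.196). The FPKM of Gapdh, Pgk1, Ldha, Pgam1 and Eno1 could include reads of near-identical pseudogenes or copies, and how such shared reads were assigned is not stated.

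Enolase makes phosphoenolpyruvate, and its isoenzymes moved in opposite directions. Eno1, at chr4:150236708-150248879, was at 513, 642 and 565 FPKM in wild type brain and 439, 552 and 502 in knockout brain. In tumour it was at 1048, 659 and 645 in wild type mice and at 784 and 1057 in knockout mice. All 5 tumour values exceeded the 6 brain values, but the nearest pair, 645 and 642, barely differed. The change was 0.65 (SE 0.20, limma adjusted p = 0.0301), and 7 of 11 fits that left out 1 library lost the call (adjusted p up to 0.137). Eno2, the neuronal form, at chr6:124760053-124769673, was at 831, 685 and 701 in wild type brain and 696, 573 and 761 in knockout brain. It was at 37.7, 33.6 and 499 in wild type tumour and at 93.5 and 196 in knockout tumour. The value of 499 came from wild type tumour replicate 3, the tumour library with the highest sum of neuron markers (2879 FPKM). Eno2 changed by -2.69 (SE 0.60, limma adjusted p = 0.0066), and by 0.75 with the neuron markers as a covariate (adjusted p = 0.541).

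Pkm, the pyruvate kinase of these tissues at chr9:59656576-59679372, was at 423, 484 and 511 FPKM in wild type brain and 394, 511 and 564 in knockout brain. It was at 949.6, 942 and 738 in wild type tumour and at 753 and 993 in knockout tumour, with every tumour library above every brain library. The means were 472 ± 45.1 and 489.7 ± 86.8 FPKM in brain (SD, n = 3 each) and 877 ± 120.1 (n = 3) and 873 ± 170.1 (n = 2) in tumour. Pkm rose by 0.86 (SE 0.19, limma adjusted p = 0.00581), and the call was kept in all 11 fits that left out 1 library. A value per gene does not separate its M1 and M2 splice forms.

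Lactate dehydrogenase is a tetramer of Ldha and Ldhb chains, and these also parted. Ldha, at chr7:46842274-46855627, was at 371, 221 and 240.4 FPKM in wild type brain and 225, 222 and 172 in knockout brain. It was at 411, 434 and 274 in wild type tumour and at 498 and 654 in knockout tumour. Wild type tumour replicate 3 lay within the brain range and the other 4 tumour libraries above it. The change was 0.95 (SE 0.22, limma adjusted p = 0.0084), called in all 11 fits that left out 1 library. Ldhb, the chain that predominates in oxidative cells, was at 374, 277 and 468 in wild type brain and 324, 511 and 360.3 in knockout brain. In tumour it was at 97.9, 49.0 and 216 in wild type mice and at 101 and 216 in knockout mice, all below brain. Ldhb changed by -1.62 (SE 0.37, limma adjusted p = 0.00751), by -1.34 to -1.89 when 1 library was left out, and by -0.10 with the neuron covariate. Without knockout tumour replicate 1 its adjusted p was 0.05 and the call was lost.

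**Figure D3:**
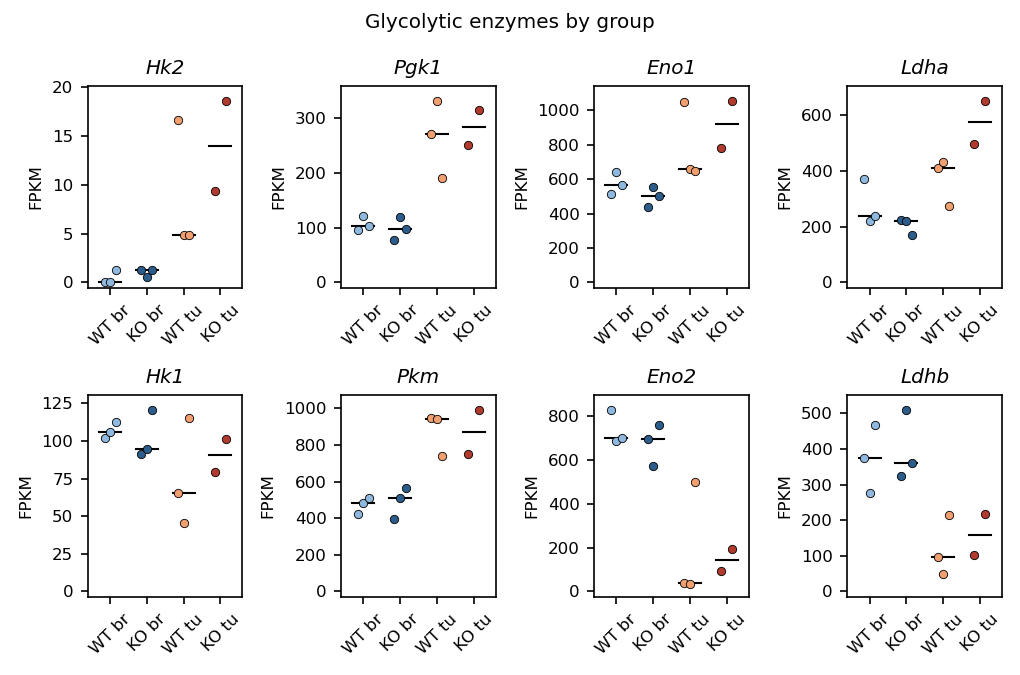
FPKM of 8 glycolytic enzymes (y axis) in wild type (WT) and knockout (KO) brain (br) and tumour (tu), with each point 1 library and each line the group's median. Hk2, Pgk1, Eno1 and Pkm lie above brain in every tumour library, and Eno2 and Ldhb below it, with wild type tumour replicate 3 the highest tumour point for Eno2 at 499.

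Isoenzymes of a pair are measured in the same library, so where both are far above the pseudocount their ratio depends little on how that library was scaled. For Hk2 and Slc16a3, listed at 0 in 2 and 5 brain libraries, the pseudocount sets the ratio there. Ratios of FPKM + 1 were compared with a two-sided exact permutation test of tissue within genotype over 200 arrangements, whose smallest possible p is 0.005, and adjusted over the 6 pairs. For Hk2/Hk1, Eno1/Eno2 and Ldha/Ldhb no tumour library overlapped a brain library. Their log2 ratios were higher in tumour by 3.14, 3.34 and 2.57, each with an exact p of 0.005 and an adjusted p of 0.01. The Ldha share of the pair's FPKM was 49.8%, 44.4% and 33.96% in wild type brain and 41.0%, 30.3% and 32.3% in knockout brain. It was 80.7%, 89.9% and 55.9% in wild type tumour and 83.1% and 75.1% in knockout tumour. Ldhb was thus the larger part in all 6 brain libraries, though barely in wild type brain replicate 1, and Ldha in all 5 tumour libraries. The Eno1 share ran from 38.2% to 49.1% in brain, and in tumour it was 96.5%, 95.2% and 56.4% in wild type mice and 89.3% and 84.4% in knockout mice. Wild type tumour replicate 3 was again the tumour library nearest to brain. The Hk2 share was at most 1.36% in brain and between 4.06% and 20.3% in tumour.

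The other 3 pairs were less clear. Slc16a3/Slc16a1 was higher in tumour by 3.44 (exact p = 0.015, adjusted p = 0.0225), with overlap between the tissues. Pfkp/Pfkm differed by 0.81 (exact p = 0.065, adjusted p = 0.078) and Aldoa/Aldoc by 0.41 (exact p = 0.1, adjusted p = 0.1), neither past the threshold.

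**Figure D4:**
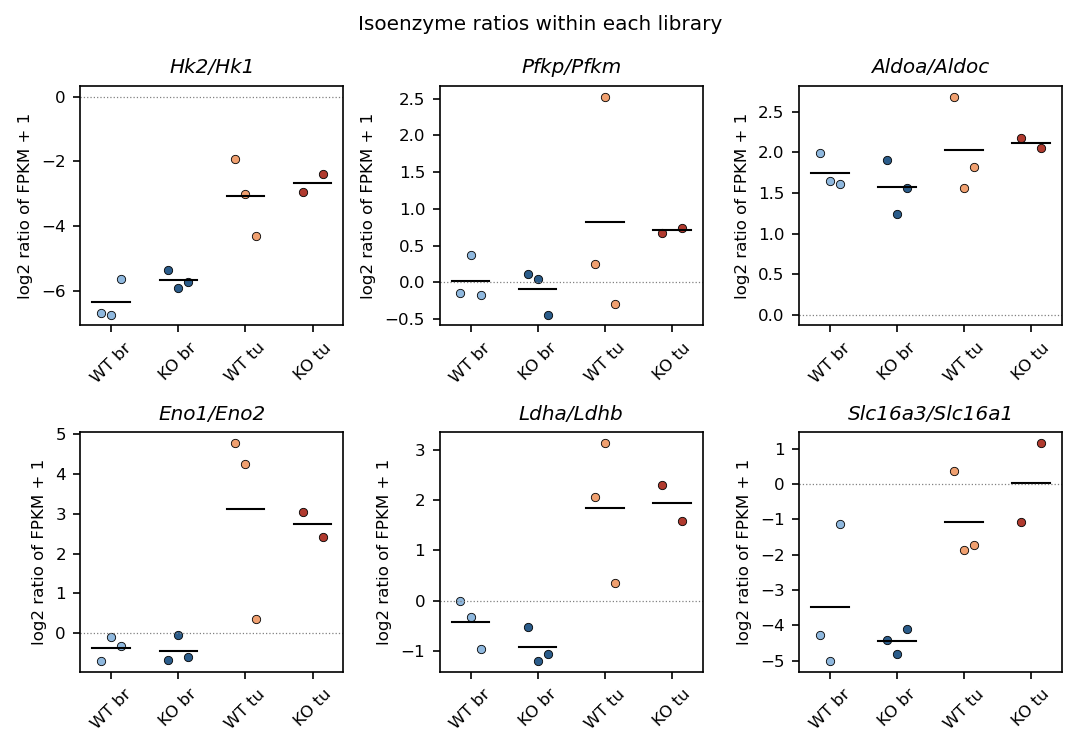
log2 ratio of FPKM + 1 for 6 isoenzyme or carrier pairs (y axis) in wild type (WT) and knockout (KO) brain (br) and tumour (tu), each point 1 library and each line the group's mean. The tissues are apart for Hk2/Hk1, Eno1/Eno2 and Ldha/Ldhb and overlap for the other pairs.

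The summed level of the 17 enzymes was of similar size in the 4 groups beside the spread of its libraries. It took 1.24% ± 0.0729 of a library's summed FPKM in wild type brain, 1.18% ± 0.146 in knockout brain and 1.12% ± 0.212 in wild type tumour (SD, n = 3 each), and 1.29% ± 0.327 in knockout tumour (n = 2). Within that sum Aldoa took 24.4% in wild type brain and 13.9% in wild type tumour, Pkm 6.72% and 14.7%, and Pgk1 1.52% and 4.43%. Enolase in total, Eno1 with Eno2, was at 1313 ± 40.8 FPKM in wild type brain and 974 ± 246 in wild type tumour, and at 1174 ± 77.2 and 1065 ± 265 in the same tissues of knockout mice. These sums are descriptions and were not tested.

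Lactate leaves or enters cells through Slc16a1 (MCT1), which is abundant at the blood-brain barrier, and Slc16a3 (MCT4), a carrier of glycolytic and hypoxic cells. Slc16a1, at chr3:104638664-104658462, was at 18.5, 31.3 and 15.8 FPKM in wild type brain and 20.5, 26.9 and 16.1 in knockout brain. It was at 7.43, 2.62 and 8.52 in wild type tumour and at 11.3 and 14.4 in knockout tumour, all below brain, which held for 12.3% of all tested genes in this direction. The change was -1.19 (SE 0.38, limma adjusted p = 0.0364), and 6 of 11 fits that left out 1 library lost the call. Slc16a3 was listed at 0 in 5 of the 6 brain libraries and at 6.70 FPKM in wild type brain replicate 3. In tumour it was at 9.86, 0 and 1.89 in wild type mice and at 4.83 and 33.4 in knockout mice. The change was 2.25 (SE 0.78, limma adjusted p = 0.048), and 8 of 11 fits that left out 1 library lost the call, with an adjusted p of up to 0.208.

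No regulator of glycolytic flux was called in any comparison. Pfkfb3, which makes the activator of phosphofructokinase and is known for its part in vessel sprouting, ranged from 12.6 to 64.6 FPKM in brain and from 49.1 to 94.3 in tumour (log2 change 0.83, limma adjusted p = 0.144). Its isoenzyme Pfkfb4 ranged from 4.04 to 13.3 in brain and from 0 to 5.10 in tumour (log2 change -1.60, limma adjusted p = 0.0552). The pyruvate dehydrogenase kinases Pdk1 and Pdk3, which hold pyruvate back from mitochondria, changed by 0.20 and 0.24 (limma adjusted p = 0.739 and 0.624). Pdk1 ranged from 13.9 to 61.0 FPKM in brain and from 26.4 to 46.7 in tumour, so the tumour libraries lay inside the brain range.

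Of the 11 hypoxia targets 4 were called lower in tumour and Car9 was seen in knockout tumour alone. Car9, the carbonic anhydrase that acidifies the outside of hypoxic cells, lies at chr4:43507026-43513729. It was listed at 0 in all 6 brain libraries and all 3 wild type tumours, and at 2.80 and 11.8 FPKM in the knockout tumours. Both knockout tumours thus lay above all other libraries. Leaving either out removed Car9 from the tested genes, since it was then above 1 FPKM in a single library. No fold or p is given, because the filter let Car9 in through the group where it is high and the other groups are listed at 0.

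The 4 targets that fell did so in all 5 tumour libraries, all below brain. Bnip3l, a mitochondrial receptor for mitophagy at chr14:66985238-67008877, was at 1298, 1248 and 1258 FPKM in wild type brain and 1457, 1123 and 1124 in knockout brain. It was at 362, 1092 and 448 in wild type tumour and at 519.6 and 381 in knockout tumour, wild type tumour replicate 2 standing close to brain. Bnip3l changed by -1.32 (SE 0.27, limma adjusted p = 0.0049) and was called in all 11 fits that left out 1 library. Ndrg1, a stress-response gene that is also abundant in myelinating cells, was at 143, 104 and 136 in wild type brain and 108, 164 and 135 in knockout brain. It was at 22.8, 0 and 53.1 in wild type tumour and at 17.02 and 35.5 in knockout tumour. Ndrg1 changed by -2.97 (SE 0.82, limma adjusted p = 0.0183), and the call was lost without knockout tumour replicate 1 (adjusted p = 0.0804). Sums of 9 oligodendrocyte markers went from 978 to 1541 FPKM in brain and from 287 to 960 in tumour.

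Egln1, the prolyl hydroxylase PHD2 that marks HIF for destruction, was at 18.0, 19.6 and 22.5 FPKM in wild type brain and 30.9, 23.6 and 34.8 in knockout brain. It was at 7.88, 0 and 5.74 in wild type tumour and at 17.5 and 15.01 in knockout tumour. The change was -1.62 (SE 0.53, limma adjusted p = 0.0389), and 8 of 11 fits that left out 1 library lost the call. Higd1a, a mitochondrial inner membrane protein, was at 19.97, 5.55 and 11.3 in wild type brain and 8.82, 9.09 and 8.72 in knockout brain. It was at 4.72, 0 and 1.47 in wild type tumour and at 0 and 0.695 in knockout tumour. Higd1a changed by -2.61 (SE 0.55, limma adjusted p = 0.00498), called in all 11 fits that left out 1 library.

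The remaining 6 targets were not called. Bnip3, a relative of Bnip3l with the same role, ranged from 33.9 to 94.8 FPKM in brain and from 0 to 54.3 in tumour, and had the largest within-group SD of all members (1.72 on the log2 scale). Its value of 0 was that of wild type tumour replicate 2, and the other wild type tumours were at 29.3 and 51.3. P4ha1, a catalytic subunit of collagen prolyl hydroxylase, ranged from 1.76 to 11.8 in brain and from 6.15 to 27.6 in tumour. Adm, the vasodilator adrenomedullin, was at 0, 7.32 and 11.7 FPKM in wild type brain and 4.38, 0 and 0 in knockout brain. Adm was at 13.6, 0 and 1.80 in wild type tumour and at 11.4 and 17.2 in knockout tumour, so wild type values were scattered in both tissues. Ankrd37, an ankyrin-repeat protein induced through HIF, ranged from 0 to 15.7 in brain and from 0 to 6.36 in tumour. P4ha2 and Egln3 are given with the genotype comparison. Summed over the 11 targets the level was 0.267% ± 0.0210 of a library's FPKM in wild type brain and 0.277% ± 0.0181 in knockout brain (SD, n = 3 each). It was 0.127% ± 0.0446 in wild type tumour (n = 3) and 0.114% ± 0.0101 in knockout tumour (n = 2), and Bnip3l made up most of it. Without Bnip3l the other 10 targets took 0.0441% ± 0.01001 in wild type brain and 0.0473% ± 0.00994 in knockout brain. They took 0.0159% ± 0.0107 in wild type tumour and 0.0275% ± 0.00393 in knockout tumour. The knockout tumours had the higher mean of the 2 tumour groups, but the groups overlapped. Wild type tumours were at 0.0180%, 0.00431% and 0.0254%, and knockout tumours at 0.0247% and 0.0303%. In wild type tumour replicate 2, the lowest, P4ha1 alone of these 10 targets was above 0.

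**Figure D5:**
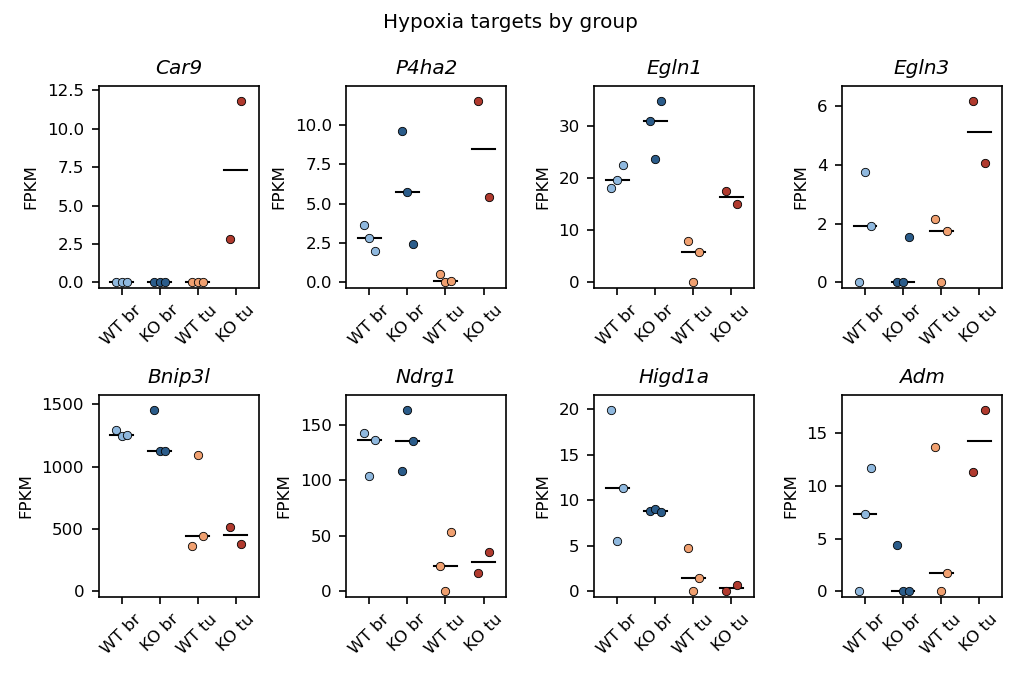
FPKM of 8 hypoxia targets (y axis) in wild type (WT) and knockout (KO) brain (br) and tumour (tu), each point 1 library and each line the group's median. Car9 is above 0 in the knockout tumours alone (2.80 and 11.8), and Bnip3l, Ndrg1, Egln1 and Higd1a are lower in every tumour library than in any brain library.

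Knockout and wild type tumours were compared to ask whether loss of Eltd1 altered these genes in glioma vessels. No member passed limma's adjusted p of 0.05, where 0.0192% of all tested genes were called, and 2 of the 33 members other than Car9 had an unadjusted p under 0.05, P4ha2 and Egln1. Of all tested genes 3.11% had such a p. Of the 33 changes 26 were positive, as were 61.2% over all tested genes, with medians of 0.36 and 0.16. Without wild type tumour replicate 2 the median of all members, Car9 included, went from 0.43 to 0.25. That of all tested genes went from 0.16 to 0.04. In 10 members both knockout tumours lay above all 3 wild type tumours, and in none below, where 10.8% of all tested genes were above and 4.61% below. The 10 were Pfkl, Tpi1, Ldha, Slc16a1, Pdk1, Pdk3, Car9, P4ha2, Egln1 and Egln3, of which Car9 passed the filter through the knockout tumours alone.

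Car9 was listed at 0 in the wild type tumours and at 2.80 and 11.8 FPKM in the knockout tumours, as described above. P4ha2, the other catalytic subunit of collagen prolyl hydroxylase, was at 0.552, 0 and 0.0778 FPKM in wild type tumour and at 11.5 and 5.43 in knockout tumour. Its brain values were 3.68, 2.85 and 1.97 in wild type mice and 9.61, 5.74 and 2.43 in knockout mice, so the wild type tumours were the low group. The change between the tumours was 2.92 (SE 0.68, unadjusted p = 0.0012, limma adjusted p = 0.782). Egln1, with its values given above, differed by 2.14 (SE 0.80, unadjusted p = 0.0203, limma adjusted p = 1), and by 1.15 without wild type tumour replicate 2, where it was listed at 0. Pfkl had the next smallest p, with a difference of 0.75 (SE 0.37, unadjusted p = 0.0675, limma adjusted p = 1). Egln3, another prolyl hydroxylase and itself a HIF target, was at 2.15, 0 and 1.75 FPKM in wild type tumour and at 6.19 and 4.06 in knockout tumour. It was at 0, 3.77 and 1.91 in wild type brain and at 0, 0 and 1.56 in knockout brain. Marker lists of several cell types were mostly higher in knockout tumour. Sums of microglia and macrophage markers were 451 and 460 FPKM in knockout and 160 to 360 in wild type tumour, and those of mural cells 75.6 and 79.7 against 25.3 to 62.3. Cspg4 made up most of the mural sum in both knockout tumours (56.9 and 44.9 FPKM) and was at 32.3, 27.4 and 9.79 in wild type tumour. Of the other mural markers only Notch3 lay above all wild type tumours in both knockout tumours, at 0.730 and 0.397 FPKM. The changes of all 10 neuron markers (median 1.16) and of 13 of 15 endothelial markers (median 0.72) were positive, though none was called and both sums overlapped between genotypes. The part of these markers in the differences was not tested.

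Healthy brain of knockout and wild type mice was compared in the same way. No member was called by limma, none had an unadjusted p under 0.05, and 0.00641% of all tested genes were called. The median of the 34 changes was -0.13, beside 0.02 over all tested genes. The 4 members with the smallest p were Aldoa, Ldha, Adm and P4ha2, with log2 changes of -0.38, -0.40, -1.43 and 0.73 and limma adjusted p of 1 each. Egln1 was higher in every knockout brain than in any wild type brain and Aldoa lower in every one, where 4.68% of all tested genes were higher and 3.84% lower without overlap.

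The tissue change was also tested for a difference between genotypes. Again no member was called by limma, where 0.00641% of all tested genes were, and 2 of the 33 members other than Car9 had an unadjusted p under 0.05, as had 3.18% of all tested genes. These were P4ha2 and Ldha, each with a limma adjusted p of 1. Ldha rose by 1.47 in knockout mice (SE 0.33, adjusted p = 0.0227) and its change of 0.43 in wild type mice was not called (SE 0.30, adjusted p = 0.333), but the difference of 1.04 between these changes (SE 0.45) did not pass the threshold.

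Other genes of the same pathways were counted from lists chosen with earlier results of these data known, in the mean tissue comparison, where 30.2% of all tested genes were called. Of 16 further genes, glycolytic isoenzymes and enzymes of adjoining steps such as phosphoglucomutase, 10 were tested. Among those, 5 rose while none fell (50% called). Hk3, a hexokinase of myeloid cells, was at 0 to 2.04 FPKM in brain and 5.32 to 15.4 in tumour (log2 change 2.91, limma adjusted p = 0.00154). Eno3, the muscle enolase, changed by 4.11 and Pgm2 and Pgm1, phosphoglucomutases, by 1.28 and 2.58. The sums of macrophage markers given above were likewise higher in tumour. Among tumour libraries Hk3 was highest in knockout tumour replicate 2 (15.4 FPKM, marker sum 451) and lowest in wild type tumour replicate 3 (5.32, marker sum 160). Knockout tumour replicate 1 had the highest sum (460 FPKM) and Hk3 at 5.88. The part of macrophage RNA in Hk3 was not tested.

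Of 12 glucose and lactate carriers and chaperones 10 were tested, and 5 fell while none rose (50% called). Bsg (basigin), which brings Slc16a1 to the membrane, was at 1709 to 2727 FPKM in brain and 218 to 533 in tumour (log2 change -2.66). Slc2a1 (GLUT1), the glucose carrier of the blood-brain barrier, was at 162 to 358 in brain and 44.5 to 182 in tumour (log2 change -1.41). Slc2a3 (GLUT3), the neuronal glucose carrier, changed by -2.69 and Slc16a7 (MCT2), a neuronal lactate carrier, by -1.81. The endothelial and neuron marker sums were lower in tumour alongside these carriers, and their part was not tested. The covariate fit held the neuron markers alone, and its values for these carriers are not given.

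Of 14 genes of pyruvate entry into mitochondria, 1 rose and 4 fell (35.7% called, near the share of all genes). Pdha1, the catalytic subunit of pyruvate dehydrogenase, rose by 0.75, whereas Pdp1, the phosphatase that activates it, changed by -1.70, Mpc1 of the mitochondrial pyruvate carrier by -1.41 and Pdk2 by -1.53. Of 13 HIF pathway regulators 12 were tested, with 4 higher and 2 lower (50% called). Hif1a was at 11.9 to 55.0 FPKM in brain and 58.1 to 110.3 in tumour (log2 change 1.45). Epas1 (HIF-2 alpha), the alpha subunit for which endothelial cells are known, was at 206 to 331 in brain and 57.3 to 87.9 in tumour (log2 change -1.91). Their partner Arnt rose by 1.20 and its neural relative Arnt2 changed by -2.63. Of 28 other hypoxia targets 26 were tested, with 4 higher and 4 lower (30.8% called, about the share of all genes). Kdm3a, a histone demethylase, rose by 1.47, while Mxi1, Rora and Insig2 changed by -1.54, -1.94 and -2.66.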

How the data were processed

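RNA from ribosome pull-downs of 11 mouse libraries in 4 groups was analysed. The authors deposited FPKM values, 1 table per library, per the file headers. TopHat2 2.1.1, Cufflinks 2.2.1 and GRCm38 are named per the submitters' processing notes. What each tool did, which annotation it used and whether it used strand is not stated, so antisense partners and near-identical copies are uncertain. Each library listed 46073 entries, and the 482 entries of 211 repeated symbols were summed, which left 45802 genes. Whole-read steps were looked for in genes under 5 FPKM, and at most 1.293% of them lay on the most frequent ratio between 2 libraries (tolerance 0.001), so depth is unknown and replicate spread alone sets the precision.

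Values were tested as log2(FPKM + 1), without further scaling, with limma 3.58.1 in R 4.3.3 (group means of all 11 libraries, 7 residual degrees of freedom, variance trend, two-sided). The pseudocount understates changes of low genes. Calls needed a Benjamini-Hochberg adjusted p under 0.05 over 15604 genes with at least 1 FPKM in at least 2 libraries. The fit was tested on simulated data. Isoenzyme ratios had an exact permutation test. Replicate numbers follow accession order. P-values measure the spread between mouse samples.

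The members, lists and tests were chosen with earlier results of these data known. All 34 members are named. Values of every library are given for members called in any comparison, for the isoenzyme pairs and for the 4 smallest p in each genotype comparison, and at most 4 genes are named per pathway list. Alternatives covered pseudocount, filter, scaling, variance trend, library weights, groups in the fit, a neuron covariate, repeated entries and leaving out libraries.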

Additional observations from a re-analysis of the deposited data

How the results depend on the processing

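Depth is unknown, so only the spread between libraries limits precision, and exact zeros (11 members in wild type tumour replicate 2) may be failed estimates. The cause of the shifts below was not tested. Fitting only the groups compared leaves fewer libraries to estimate the spread. Over all genes such a fit called 614 instead of 3024 in wild type mice, and 2803 instead of 1105 in knockout mice. No paired analysis was possible because the replicate numbers only follow accession order.

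With the neuron markers as a covariate the wild type, knockout and mean tissue comparisons called 0 members higher and 0 lower, and Eno2 turned from falling to 1.23 (wild type) and 0.75 (mean), and Ldhb to 0.068 (wild type). In the mean, Hk2 stayed at 2.12, Slc16a3 at 2.25, Bnip3l at -1.71 and Higd1a at -2.55. In the wild type comparison (3 higher, 9 lower) fitting only the groups compared left 0 and 0. The 9 lower became 4 with a pseudocount of 0.1, 5 without a filter, 5 with a common sum and 2 with upper quartile scaling. In the knockout comparison (4 higher with Car9, 0 lower) the higher count became 2 without a variance trend, 10 with library weights and 7 without wild type tumours 2 and 3. Its lower count became 2 with a filter of 5 FPKM, 2 with quantile normalization, 1 each with upper quartile scaling, a common sum and no variance trend, 6 with library weights, 4 with only the groups compared and 6 without wild type tumours 2 and 3. Library weights called 1 member higher in knockout than wild type tumour, Car9, which passed the filter through knockout tumour alone. Counts here include Car9. Aldoa/Aldoc passed the threshold at 0.74 without wild type tumours 2 and 3. Members with all tumour above all brain libraries went from 4 to 2 with upper quartile scaling, and those below from 9 to 2, or 3 with quantile normalization. The wild type share of higher calls over all genes went from 39.7% to 51.2% and 52.2% under these scalings, and the knockout share from 67.7% to 84% and 63.3%.

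Leaving out 1 library at a time gave 1 to 3 higher and 0 to 11 lower members in wild type mice, 0 to 5 and 0 to 3 in knockout mice, and 4 to 8 and 4 to 11 in the mean. The wild type count of 0 lower came without wild type brain replicate 1 or 3, and the knockout count of 0 higher without either tumour library. Slc16a3/Slc16a1 ranged from 2.88 to 4.03, Pfkp/Pfkm from 0.38 to 1.09 (past the threshold without wild type tumour replicate 3) and Aldoa/Aldoc from 0.25 to 0.53 (past it without wild type tumour replicate 2). Hk2/Hk1, Eno1/Eno2 and Ldha/Ldhb stayed past the threshold in each of these fits. No alternative called a member between brains of the 2 genotypes or in the test of a genotype difference of the tissue change.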

Other observations

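The median within-group SD on the log2 scale was 0.33 for the 17 glycolytic enzymes, 0.93 for the 11 hypoxia targets and 0.81 for all tested genes. Above that last value lay 11 of the 34 members, 8 of them hypoxia targets. All of these 11 except P4ha1 and Eno2 were listed at 0 in wild type tumour replicate 2, where zeros may be failed estimates. Each member reached its highest tumour value in 1 of the 5 tumour libraries: 14 members in knockout tumour replicate 2, 7 in wild type tumour replicate 2, 7 in wild type tumour replicate 3, 5 in knockout tumour replicate 1 and 1 in wild type tumour replicate 1. Knockout tumour replicate 2 was the only library of the 11 in which no member was listed at 0.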
